A study of Mus musculus with 24 samples.

Results

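RNA of E0771-LG cells was compared with RNA of E0771 cells, both carrying the same control hairpin vector. The samples are, by their labels, the control cells of these lines: 3 libraries of E0771 (E0771shCtrl) and 3 of E0771-LG (E0771-LGshCtrl), so 6 of the 24 samples of the study. E0771 is a mouse mammary carcinoma line of the C57BL/6 strain that metastasizes poorly, and E0771-LG was derived from a lung metastasis of E0771. Each group is 1 population of cells, infected with virus of the pLKO.1 vector carrying a hairpin against EGFP and kept under puromycin. The lines reached the study from different laboratories, so metastatic origin, culture history and any change in the cells during transduction cannot be told apart. PTN knockdown cells of the same lines, 3 libraries of E0771shPTN and 3 of E0771-LGshPTN, carry a hairpin against Ptn in the same vector and were used to ask where the difference between the lines recurred. The paper calls the samples biological replicates, but the labels give nothing on separate cultures, so p-values measure only the spread between these libraries, which may be technical.

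Pleiotrophin (PTN) is a secreted, heparin-binding growth factor best known from the developing nervous system, and midkine is its only close relative. Both bind receptor phosphatases, syndecans and LRP1 on the cell surface. Metastasis draws on programs that let tumor cells leave a primary site, recruit myeloid cells through chemokines such as CXCL1 and CXCL2, remodel matrix and escape killing by T cells, which read peptides on MHC class I molecules.

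The control libraries held 17.25, 20.42 and 16.61 M reads in E0771 and 17.30, 19.59 and 18.60 M reads in E0771-LG, so the depth of the groups overlapped. Values are log2 CPM, the reads of a gene relative to all reads of its library on a log2 scale. The correlation of log2 CPM over genes, which do not stand in for replicates, lay between 0.985 and 0.990 within E0771 and between 0.974 and 0.986 within E0771-LG. Between the lines it lay between 0.856 and 0.889, below every pair within a line. No pair of libraries agreed within sampling noise, with a chi-square of at least 10.68 per gene.

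The labelled carcinoma cells expressed only some epithelial markers. Krt8, a keratin of simple epithelia, had 1559, 2188 and 1630 reads in E0771 and 2470, 3667 and 2760 in E0771-LG, and Epcam, an epithelial adhesion molecule, had 146, 129 and 133 against 245, 307 and 261. Every E0771-LG library was above every E0771 library for both genes (log2 fold change 0.69 and 0.95). Cdh1 (E-cadherin), Krt18 and Krt7 had at most 18 reads in any of the 6 libraries, and Krt19 had 0 in all. These 4 were named after their values had been seen.

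Of the leukocyte marker list, 28 of 30 genes were in the table, 12 were tested, and 7 were higher (58.3%, against 19.2% of all tested genes) and 3 lower (25%, against 35.3%) in E0771-LG. Their summed level was 72.1, 93.8 and 85.5 CPM in E0771 and 273, 308 and 274 CPM in E0771-LG. The most abundant member in E0771-LG was Laptm5, a lysosomal protein of blood cells, with 105, 130 and 93 reads against 1521, 1618 and 1574. Vav1, a signaling protein of blood cells, had 161, 192 and 191 reads against 769, 1197 and 988 (2.38), and Cd14, a receptor for bacterial lipid, was higher by 1.23. Lcp1 (4.61) and Itgb2 (0.75) were higher too. The lower members were Coro1a (−1.65), Lyz2 (−1.03) and Cd68 (−3.24). Rac2, a GTPase of blood cells, had 0, 0 and 1 reads in E0771 and 47, 85 and 37 in E0771-LG, and Hcls1 was higher by 2.21. The other 2 tested members did not pass, S100a8 with 74 to 110 reads in E0771 and 49 to 107 in E0771-LG, and Ncf1 with 35 to 40 and 33 to 82. Among members too low to test, Itgam, Tyrobp, Cd3e and S100a9 had 0 reads in all 6 libraries, Ptprc had at most 5 and Cd52 at most 2. These 6 members and Rac2, Hcls1, Cd68, S100a8 and Ncf1 were named after their values had been seen. Among endothelial markers 1 of 4 tested was higher (25%) and 3 lower (75%), and they summed to 36.4, 35.5 and 43.1 CPM in E0771 and 18, 20.9 and 16 CPM in E0771-LG, with Egfl7 the most abundant. Fibroblast markers, 2 higher (50%) and 2 lower (50%) of 4 tested, summed to 74.8, 101 and 86.3 against 92.5, 146 and 108 CPM, led by Pdgfra. Lung epithelium markers, of which 1 was tested and did not pass, had at most 5.72 CPM in any library. Adipocyte and muscle markers, 2 higher (66.7%) and 1 lower (33.3%) of 3 tested, summed to at most 5.3 CPM in E0771 and at least 14.6 CPM in E0771-LG, where Fabp4 was the most abundant, and 1 was called without replicate 3 of E0771-LG. The part of other cells in these sums was not tested.

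Of 12091 genes in the table, 10411 were tested, those with at least 1 CPM above the value of 0 reads in at least 3 of the 6 libraries. At an adjusted p under 0.05 (limma, Benjamini-Hochberg), 2004 genes were higher in E0771-LG (19.2%), 3672 were lower (35.3%) and 4735 did not pass, so 54.5% were called in either direction. At least 2-fold changes were found for 431 higher genes (4.14%) and 1319 lower genes (12.7%), and at least 8-fold changes for 97 and 123. The median standard error (SE) of a log2 fold change was 0.13.

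The lean towards lower genes depended on how the libraries were scaled. The median log2 fold change of all tested genes was −0.15 on the deposited scale and 0.00 after quantile normalization or median-of-ratios scaling. Of the called genes, 35.3% were higher on the deposited scale, 50.1% with median-of-ratios scaling (2847 higher, 2831 lower) and 51.4% after quantile normalization (2830 higher, 2671 lower). Genes at least 2-fold higher and lower numbered 590 and 1047 with median-of-ratios scaling and 673 and 805 after quantile normalization. All log2 fold changes below are on the deposited scale and are to be read against the median of −0.15.

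**Figure D1:**
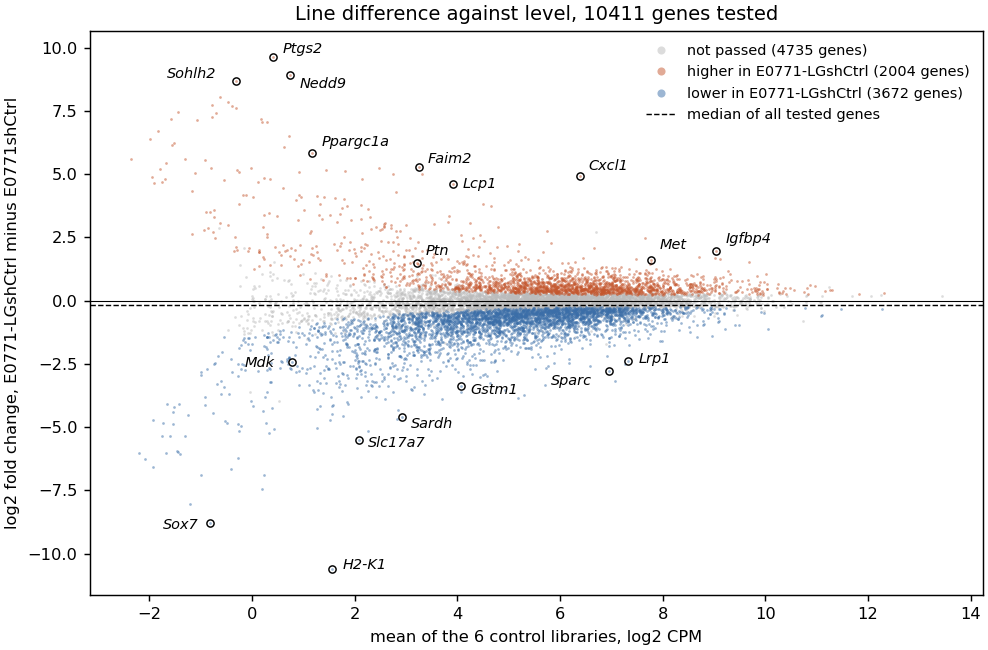
Log2 fold change (E0771-LGshCtrl minus E0771shCtrl) of each tested gene against its mean log2 CPM over the 6 control libraries, with genes higher, lower and not passed in 3 colors and the median of −0.15 as a dashed line. Cxcl1 (4.94) and Igfbp4 (1.98) stand high among abundant genes, H2-K1 (−10.61) lies lowest, and values at the left edge rest on few reads in 1 line.

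Ptn itself had 128, 92 and 80 reads in E0771 and 216, 446 and 248 reads in E0771-LG. All 3 E0771-LG libraries were above all 3 E0771 libraries, with a log2 fold change of 1.51 (SE 0.28, limma adjusted p = 0.0012, n = 3 a group). In the knockdown cells the same order was seen at a lower level, with 12, 21 and 22 reads in E0771 and 56, 35 and 45 in E0771-LG (1.21).

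Midkine, encoded by Mdk, went the other way, with 65, 61 and 91 reads in E0771 and 21, 10 and 11 in E0771-LG (−2.42, SE 0.44, limma adjusted p = 0.00114). The groups did not overlap. Among the receptors, Lrp1, a large endocytic receptor, had 4290, 8025 and 8126 reads in E0771 and 712, 1822 and 1655 in E0771-LG (−2.38, SE 0.37). Every E0771-LG library held fewer Lrp1 reads than every E0771 library. Ptprs, a receptor phosphatase of heparan sulfate ligands, was also lower (−1.48, SE 0.28). Itgb3, the beta subunit of a vitronectin-binding integrin, was higher (1.12, SE 0.21).

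Nucleolin (Ncl) was higher by 0.51, but its groups overlapped and the call was lost after quantile normalization (0.41) and without each of 4 libraries in turn. The proteoglycans Gpc1 and Sdc2 were lower by small amounts (−0.55 and −0.38), and with median-of-ratios scaling neither passed. Gpc1 also lost its call without each of the E0771 libraries in turn and without replicate 3 of E0771-LG. Sdc1, Sdc4 and Itgav did not pass, although Sdc1 and Sdc4 were higher with median-of-ratios scaling (0.35 and 0.41), and Sdc4 also without replicate 2 of E0771 (0.42). Ptprz1, the receptor phosphatase most often named for PTN, was too low to test, with 8, 33 and 16 reads in E0771 and 13, 22 and 12 in E0771-LG. Sdc3 and Nrp1 also had too few reads to test. Over the list of this ligand family and its receptors, 11 of 16 members were tested, and 3 were higher (27.3%, against 19.2% of all tested genes), 5 lower (45.5%, against 35.3%) and 3 not passed, with a median of −0.19. With median-of-ratios scaling the split was 5 higher and 3 lower, and after quantile normalization it was 2 higher and 5 lower.

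Chemokines and secreted cytokines were the gene list with the highest median. The list also holds other genes of inflammation, such as Saa3, Lcn2 and the prostaglandin enzyme genes Ptges and Ptgs2, and Ptgs2 is among its higher members. Of 32 tested members, 21 were higher (65.6%, against 19.2% of all tested genes), 3 were lower (9.38%, against 35.3%) and 8 did not pass. The median log2 fold change was 1.35, against −0.15 over all tested genes, and it was 1.76 after quantile normalization. The leukocyte markers described above, of which 7 of 12 tested were higher, summed to at least 273 CPM in E0771-LG and at most 93.8 CPM in E0771, and their part in the result was not tested.

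Cxcl1, a chemokine that draws neutrophils through CXCR2, had 208, 380 and 250 reads in E0771 and 6985, 12291 and 7281 reads in E0771-LG. The lowest E0771-LG library was far above the highest E0771 library, and the log2 fold change was 4.94 (SE 0.22, limma adjusted p = 2.47e-06). Cxcl2, a neighboring gene that acts on the same receptor, had 14, 20 and 12 reads against 179, 447 and 212 (4.02, SE 0.34). Cxcl3, the next member of this cluster, had 559, 405 and 427 reads against 1805, 3255 and 2086 (2.29), and was chosen for mention after its values had been seen. For each of these genes, replicate 2 of E0771-LG was the highest of the 6 libraries.

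The monocyte chemokine Ccl7 had 97, 176 and 109 reads in E0771 and 804, 833 and 675 in E0771-LG (2.60, SE 0.18). The acute-phase protein gene Saa3 had 12, 22 and 34 reads against 186, 492 and 296 (3.78). Lcn2, an iron-scavenging protein of inflamed tissue, had 40, 253 and 156 reads against 695, 1963 and 769 (3.08, SE 0.67). The E0771 libraries varied widely for Lcn2 but stayed below the E0771-LG libraries, and without replicate 2 of E0771-LG its difference (2.65) no longer passed. Ccl2, another attractant of monocytes, was chosen for mention after its values had been seen. It had 1203, 1921 and 1628 reads in E0771 and 7865, 10147 and 8529 in E0771-LG (2.46).

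The lower members of the list were Tgfb3, a ligand of the TGF-beta family, Lif, a cytokine that signals through gp130, and Ptges, which makes prostaglandin E2. Tgfb3 had 87, 119 and 100 reads in E0771 and 14, 16 and 21 in E0771-LG (−2.59). Lif and Ptges, named here because they complete the count of 3, were lower (−1.57 and −0.94). The most abundant members did not pass: Spp1 (osteopontin) had 10934, 24258 and 14887 reads against 9517, 21311 and 11128, and Mif had 11236, 10722 and 10367 against 8982, 11093 and 9061. For both, the groups overlapped, although Mif was lower (−0.30) after quantile normalization.

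**Figure D2:**
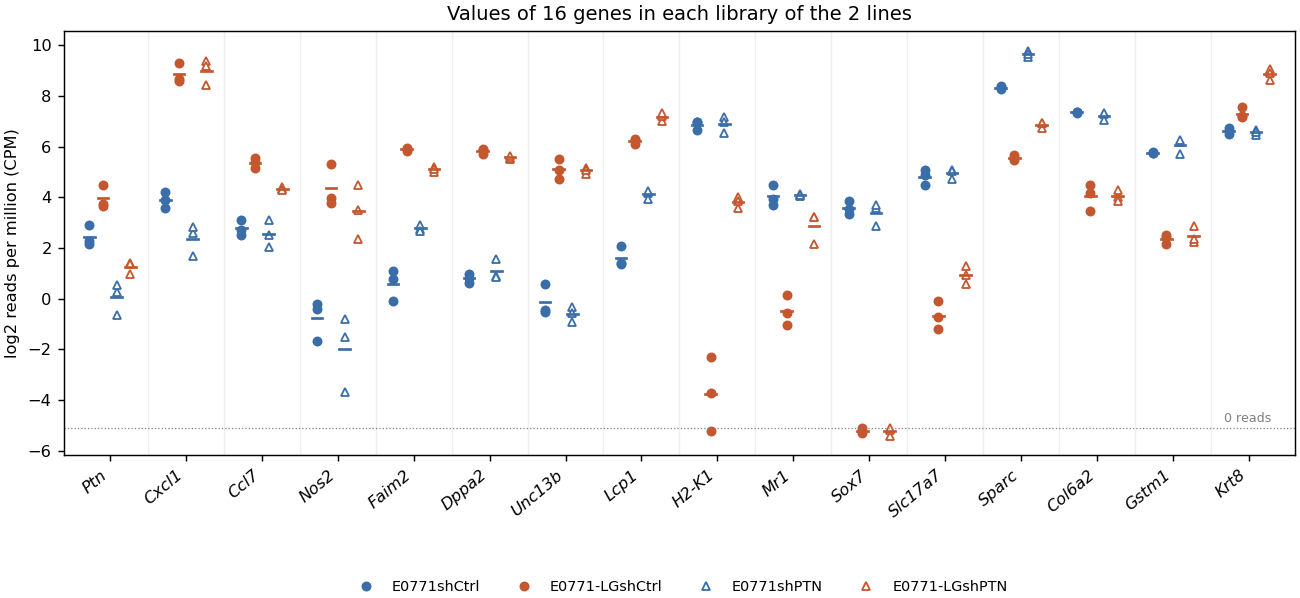
Log2 CPM of 16 genes in each library (points) with the mean of each group (bars), for control cells (filled circles) and shPTN cells (open triangles) of E0771 and E0771-LG. The E0771-LG points lie above the E0771 points for Ptn, Cxcl1 and Ccl7 and below them for H2-K1, Sox7, Sparc and Gstm1, in control and in shPTN cells, and Sox7 sits at the level of 0 reads (dotted line) in all E0771-LG libraries.

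Promoters of the higher chemokine genes were searched for the kappa-B motif, to which NF-kappa-B dimers can bind, because these genes moved together. The search was decided after the values had been seen, and 4 forms of the motif were tried, each on both strands, so their counts are a description only. Ccl9, Ccl20, Csf1, Il1rn and Ltb are named here for their match alone. Windows ran from 250 bases before to 50 after the gene start (RefSeq, GRCm38.p6), and 9390 genes of the table had at least 1 window. The form GGGNNTTTCC occurred for 6 of the 14 higher chemokine and cytokine genes with a window (Ccl20, Csf1, Cxcl1, Cxcl2, Cxcl3 and Il1rn), for 0 of 2 lower genes and for 0 of 6 that did not pass. Ccl9 and Ltb, members too low to test, also held this form and are in none of these groups. The form occurred for 2.08% of all genes with a window, and for 3.1%, 1.66% and 1.88% of all genes that were higher, lower and not passed. The looser form GGGNNNTTCC, which contains the first, gave 6 of 14, 0 of 2 and 2 of 6, against 7.28% of all genes. The loosest, GGGNNNNNCC, gave 10 of 14, 2 of 2 and 2 of 6, against 72.9% of all genes, so it did not set the list apart. The strictest, GGGAATTTCC, which the first contains, gave 3 of 14, 0 of 2 and 0 of 6, against 0.117%. Cxcl1, Cxcl2 and Cxcl3 are related neighbors on chromosome 5, so their matches are not independent of each other. A match shows only that these letters are present.

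The windows of Ccl20 and of the 3 neighboring chemokine genes are given 5′ to 3′ in the direction of the gene, with matches to GGGNNTTTCC on either strand in capitals.
Cxcl1, chr5:90890995-90891294, plus strand: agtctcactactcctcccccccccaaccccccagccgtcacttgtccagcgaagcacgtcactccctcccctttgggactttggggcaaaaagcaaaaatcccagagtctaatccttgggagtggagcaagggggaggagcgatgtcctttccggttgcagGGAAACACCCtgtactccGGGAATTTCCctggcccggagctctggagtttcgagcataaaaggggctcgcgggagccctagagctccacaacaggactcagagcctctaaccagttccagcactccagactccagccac
Cxcl2, chr5:90903649-90903948, plus strand: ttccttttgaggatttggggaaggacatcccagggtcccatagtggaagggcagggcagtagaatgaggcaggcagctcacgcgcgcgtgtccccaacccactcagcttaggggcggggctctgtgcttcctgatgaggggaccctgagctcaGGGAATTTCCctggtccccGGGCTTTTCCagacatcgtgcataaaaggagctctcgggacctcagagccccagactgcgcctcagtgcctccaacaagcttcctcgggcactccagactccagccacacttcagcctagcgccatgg
Cxcl3, chr5:90785851-90786150, plus strand: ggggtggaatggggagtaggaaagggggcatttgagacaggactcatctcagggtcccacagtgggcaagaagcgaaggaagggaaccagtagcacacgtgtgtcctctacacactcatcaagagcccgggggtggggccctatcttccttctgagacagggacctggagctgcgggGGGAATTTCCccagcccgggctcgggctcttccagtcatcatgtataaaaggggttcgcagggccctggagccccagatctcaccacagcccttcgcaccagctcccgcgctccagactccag
Ccl20, chr1:83116516-83116815, plus strand: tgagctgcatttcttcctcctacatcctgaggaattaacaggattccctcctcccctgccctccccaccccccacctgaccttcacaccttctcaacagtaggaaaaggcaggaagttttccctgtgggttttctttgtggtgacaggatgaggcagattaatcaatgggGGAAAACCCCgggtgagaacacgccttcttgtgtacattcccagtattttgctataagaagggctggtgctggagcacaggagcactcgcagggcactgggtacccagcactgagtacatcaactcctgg
Cxcl1 and Cxcl2 each held 2 matches, and Cxcl3 and Ccl20 held 1.

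Of 21 tested subunits and inhibitors of NF-kappa-B, 8 were higher (38.1%, against 19.2% of all tested genes), 1 was lower and 12 did not pass, so 42.9% were called against 54.5%. The median was 0.39. After quantile normalization 13 were higher and 1 lower. Nfkbiz, an inducible coactivator for cytokine genes, had 367, 547 and 380 reads in E0771 and 1229, 1586 and 1272 in E0771-LG (1.64, SE 0.13). Nfkbia, the inhibitor that NF-kappa-B itself induces, had 1323, 1856 and 1461 against 2847, 4168 and 2878 (1.05, SE 0.13). Neither gene overlapped between the lines. Ikbkg, the regulatory subunit of the IKK kinase, was the lower member (−1.09, SE 0.12), and Rela, the transactivating subunit, did not pass (0.10).

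Of 15 tested genes described as lung metastasis genes in human breast cancer, 8 were higher (53.3%, against 19.2% of all tested genes), 3 lower (20%, against 35.3%) and 4 not passed, with a median of 1.11. The count of called genes was 11, and 7 without replicate 3 of E0771-LG. Cxcl1 and Ptgs2, both higher, are also on the list of chemokines and secreted cytokines, so the results of these lists are not separate. Vcam1, an adhesion molecule for leukocytes, had 28, 43 and 30 reads in E0771 and 295, 231 and 220 in E0771-LG (2.84, SE 0.25). Tnc, the matrix glycoprotein tenascin C, had 170, 347 and 215 against 607, 1092 and 1054 (1.89). Each gene was higher in every E0771-LG library. Members went both ways: Sparc, a collagen-binding matrix protein, had 5758, 6374 and 5378 reads in E0771 and only 764, 1005 and 867 in E0771-LG (−2.77, SE 0.10, limma adjusted p = 1.12e-07). Id1, an inhibitor of differentiation factors, was lower (−1.22). Fscn1, an actin-bundling protein, did not pass, although it was lower (−0.32) after quantile normalization and (−0.25) without replicate 1 of E0771-LG.

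Of 22 tested genes of MHC class I antigen presentation, 3 were higher (13.6%, against 19.2%), 11 lower (50%, against 35.3% of all tested genes) and 8 not passed, with a median of −0.44. The median stayed below 0 under each scaling (−0.29 and −0.36), and 14 called members became 9 without replicate 1 or without replicate 3 of E0771. Many of these genes lie on chromosome 17, where 56.3% of all tested genes were lower. There 7 of the 10 tested members were lower and 0 higher (median −1.02, against −0.47 for all tested genes of the chromosome), and Psmb9, Tap1, Psmb8 and Tap2 lie in 1 run of 7 consecutive lower genes, of which Tap1 and Psmb8 were named after their values had been seen. On the other chromosomes 4 of 12 were lower (33.3%, against 34.2% of all genes tested there) and 3 higher.

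H2-K1, a classical class I heavy chain, had 1728, 2574 and 2083 reads in E0771 and 3, 1 and 0 reads in E0771-LG, so it was abundant in all E0771 libraries and nearly absent from all E0771-LG libraries. The fitted difference was −10.61 (SE 0.65, limma adjusted p = 1.06e-05), a value that depends on the offset of 0.5 read. Class I genes are near-identical copies whose reads can be split, so the H2-K1 count is uncertain. H2-D1, the other classical heavy chain in the table, was named after its values had been seen. It had 11241, 15493 and 13387 reads against 8629, 14768 and 11423 and did not pass.

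Mr1, which presents vitamin metabolites to innate-like T cells, had 225, 465 and 254 reads in E0771 and 8, 21 and 12 in E0771-LG (−4.54, SE 0.36). Psmb9, an immunoproteasome subunit, had 269, 405 and 398 against 43, 91 and 40 (−2.73, SE 0.30). Tap2, a subunit of the peptide transporter (−1.11), and Nlrc5, the transactivator of class I genes (−1.15), were also lower. The opposite was seen for Psmb10, another immunoproteasome subunit, with 268, 201 and 243 reads in E0771 and 1052, 1141 and 968 in E0771-LG (2.12, SE 0.18). The chaperone gene Canx was higher by 0.45, a call lost after quantile normalization, under which the chaperone gene Calr was lower (−0.32). On the deposited scale Calr did not pass.

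Of 61 tested interferon response genes, 7 were higher, 14 lower and 40 not passed, so 34.4% were called against 54.5% of all tested genes. Their median was −0.28, and under the other scalings the split was 9 against 8 and 10 against 8. Without replicate 2 of E0771-LG, 37 members were called in place of 21, when 55% of all tested genes were called. With a replicate block the count of called members rose as well. The share is therefore not read against that of all genes. Dhx58, a helicase of the RIG-I family, had 161, 465 and 318 reads in E0771 and 26, 124 and 32 in E0771-LG (−2.64, SE 0.61). Trim30a (−1.69) and Gbp9 (−1.45) were lower too, whereas Psmb10, also a member of this list, was higher (2.12). For Dhx58 and Trim30a, replicate 2 was the highest library of each line.

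Among ligands that T and NK cells read, 4 of 13 tested were higher (30.8%, against 19.2% of all tested genes), 3 lower (23.1%, against 35.3%) and 6 not passed. Cd47, a signal that restrains phagocytes, had 3047, 4644 and 3235 reads in E0771 and 1890, 2718 and 2014 in E0771-LG (−0.75, SE 0.13). Cd274, which encodes PD-L1, had 85, 140 and 94 reads against 33, 68 and 58 (−1.06, SE 0.30), and it no longer passed after quantile normalization (−0.50) or without replicate 2 of E0771 (−0.94). Vsir was lower (−1.42). Ulbp1, a ligand of the activating receptor NKG2D, was higher by 0.66, and Tgfb1 by 0.68.

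A set of genes was read in 1 line and nearly silent in the other. With limits of at most 5 reads in every library of 1 line and at least 100 in every library of the other, 13 genes were read only in E0771-LG and 6 only in E0771. Limits of 10 and 50 reads gave 31 and 18. These are counts of reads with no test, and for genes with so few reads in 1 line the reads are given in place of a fold.

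Ptgs2, the inducible cyclooxygenase, had 0, 2 and 0 reads in E0771 and 615, 923 and 606 in E0771-LG. Nedd9, a scaffold of focal adhesions, had 1, 3 and 0 against 563, 782 and 717. Sohlh2, a transcription factor of germ cells, had 0, 0 and 1 against 272, 316 and 319. The contrast was present in each library of these genes. Robo1, a receptor for the guidance cue SLIT, had 0, 2 and 5 reads against 177, 323 and 310. Sema3c, a secreted semaphorin, had 1, 2 and 1 against 176, 292 and 274. Others read only in E0771-LG were S100a16, Prr19, Epop, Tpbg and Enox2, each with at most 4 reads in any E0771 library and at least 171 in any E0771-LG library. The remaining genes were Arhgap28, Tmem185b and Magea9, named to complete the count, and Magea9 belongs to a family of near-identical copies, so its reads are uncertain.

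In the other direction, besides H2-K1, Sox7, a transcription factor of endothelial and endodermal cells, had 176, 294 and 196 reads in E0771 and 0 in each of the 3 E0771-LG libraries. Against the 3 reads that 0 reads allow over the group, it was at least 227-fold lower in E0771-LG. C1qtnf12, a secreted adipokine, had 259, 312 and 254 reads against 0, 5 and 1. Slc8a2, a sodium-calcium exchanger, had 163, 296 and 258 against 3, 4 and 0. Hcfc1r1 and Gabbr1 completed the 6.

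RefSeq promoter windows were found for 11 of the 13 genes read only in E0771-LG and for 4 of the 6 read only in E0771. The median number of CpG dinucleotides, the sites of DNA methylation, was 15.5 over 14 windows and 15 over 5 windows, against 20 over the 12034 windows of genes in the table. Of all windows 78.6% held at least 10, and so did 64.3% of the windows of genes read only in E0771-LG and 100% of the 5 of genes read only in E0771. Counts in the windows of genes read only in E0771-LG had a range from 2 (S100a16) to 42 (Sema3c). Methylation was not measured.

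The windows of H2-K1, Ptgs2 and Sohlh2, chosen after their values had been seen for the plain presence and absence of their reads, are given from RefSeq, GRCm38.p6, 5′ to 3′ in the direction of the gene with each CpG in capitals.
H2-K1, chr17:34000284-34000583, minus strand: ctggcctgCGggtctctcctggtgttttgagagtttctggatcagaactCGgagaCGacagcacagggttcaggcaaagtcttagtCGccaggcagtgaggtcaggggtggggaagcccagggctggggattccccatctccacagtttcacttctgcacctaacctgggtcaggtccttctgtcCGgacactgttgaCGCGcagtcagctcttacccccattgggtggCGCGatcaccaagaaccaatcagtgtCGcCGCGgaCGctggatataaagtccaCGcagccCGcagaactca
Ptgs2, chr1:150099781-150100080, plus strand: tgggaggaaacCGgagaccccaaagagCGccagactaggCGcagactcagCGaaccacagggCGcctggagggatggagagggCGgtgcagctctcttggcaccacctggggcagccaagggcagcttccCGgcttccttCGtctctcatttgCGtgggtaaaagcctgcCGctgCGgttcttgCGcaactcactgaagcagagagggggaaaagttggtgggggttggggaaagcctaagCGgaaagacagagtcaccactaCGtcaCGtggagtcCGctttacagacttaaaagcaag
Sohlh2, chr3:55181794-55182093, plus strand: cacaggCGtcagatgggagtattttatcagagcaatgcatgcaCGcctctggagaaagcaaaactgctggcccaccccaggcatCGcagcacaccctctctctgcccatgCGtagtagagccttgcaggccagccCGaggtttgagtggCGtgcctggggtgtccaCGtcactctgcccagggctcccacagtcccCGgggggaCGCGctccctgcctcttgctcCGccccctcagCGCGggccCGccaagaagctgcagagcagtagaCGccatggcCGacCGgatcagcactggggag
They held 15, 16 and 17 CpG dinucleotides.

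Among genes with reads in both lines, no overlap between the groups and mean log2 CPM not under 1, the largest increases were in genes of varied function. Ppargc1a, a coactivator of mitochondrial biogenesis, had 8, 7 and 2 reads in E0771 and 238, 386 and 340 in E0771-LG (5.83, SE 0.45). Faim2, an inhibitor of Fas-induced death, had 36, 19 and 28 against 1029, 1123 and 1163 (5.30, SE 0.27). Unc13b, a priming factor of vesicle release, had 12, 30 and 11 against 452, 906 and 628 (5.25, SE 0.34). In each, the lowest E0771-LG library was well above the highest E0771 library. Nos2, the inducible nitric oxide synthase, had 5, 15 and 14 reads against 237, 788 and 291 (5.11, SE 0.50). Dppa2, a factor of pluripotent cells, had 26, 40 and 29 against 1046, 1136 and 963 (5.01, SE 0.18). Lcp1, an actin bundler that is also on the leukocyte marker list, had 46, 85 and 42 against 1318, 1557 and 1281 (4.61, SE 0.20). Padi4, Acap1, Dok3, Amt and Akr1c12 were higher by 4.14 to 5.16, again without overlap, and Akr1c12 has close relatives with which it may share reads.

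The largest decreases among such genes, after H2-K1, began with Slc17a7, a vesicular glutamate transporter, with 393, 684 and 492 reads in E0771 and 10, 8 and 17 in E0771-LG (−5.49, SE 0.32). Rfx2, a transcription factor of ciliated cells, had 453, 633 and 471 reads against 6, 47 and 10 (−5.15, SE 0.65). Serinc5, a membrane protein that restricts retroviruses, had 172, 356 and 242 against 3, 15 and 8 (−5.03, SE 0.49). For all 3 genes the lines did not overlap, and replicate 2 of E0771-LG was the highest of its group for Rfx2 and Serinc5. Fez1, an adaptor of axonal transport, had 462, 839 and 708 reads against 17, 34 and 28 (−4.69, SE 0.27), and Sardh, a mitochondrial sarcosine dehydrogenase, had 631, 817 and 588 against 36, 25 and 24 (−4.60, SE 0.23). Cpeb1, Tppp3, Mapre3, Hdac11 and Lrrn4cl were lower, with log2 fold changes from −4.71 to −4.18.

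Matrix genes and proteases moved in both directions. Of 36 tested collagens, matrix and crosslinking genes, 9 were higher (25%, against 19.2% of all tested genes) and 15 lower (41.7%, against 35.3%), with a median of −0.34. Col6a2, a chain of collagen VI, had 2797, 3406 and 2752 reads in E0771 and 190, 440 and 338 in E0771-LG (−3.32, SE 0.23). Lamb2, a laminin chain (−2.66), and Fbln2, a fibulin (−2.60), were also lower. Thbs2, a thrombospondin, went the other way, with 12, 27 and 21 reads against 121, 272 and 152 (3.10, SE 0.37), as did Ccn2, a matricellular target of TGF-beta (2.38). Of 27 tested metalloproteases, plasminogen genes and inhibitors, 10 were higher (37%) and 8 lower (29.6%), and their median changed sign between scalings (−0.06, 0.09 and 0.39). Mmp10 had 12, 9 and 12 reads against 175, 308 and 152 (4.11), Mmp9 had 30, 95 and 45 against 333, 483 and 463 (3.01), and both encode secreted proteases of matrix. Serpinf1, an antiangiogenic secreted protein, was higher by 3.76. The cathepsin gene Ctsb was lower (−1.10).

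Among adhesion and cell-state genes, 46.2% of integrins, 45.8% of mesenchymal genes and 56.2% of epithelial genes were called, against 54.5% of all tested genes. Of 13 tested integrins 3 were higher, 3 lower and 7 not passed: Itgb4, the laminin-binding subunit of epithelia, had 169, 197 and 137 reads in E0771 and 32, 23 and 30 in E0771-LG (−2.58, SE 0.27), whereas Itgb2 was higher by 0.75. Itga1 was higher by 1.30, a call lost without replicate 1 (1.22) or 3 (1.26) of E0771. The most abundant, Itgb1, did not pass. Of 24 tested mesenchymal genes 9 were higher (37.5%, against 19.2%) and 2 lower (8.33%, against 35.3%), with a median of 0.12: Prrx1, a mesenchymal transcription factor, was higher by 0.95, Snai1, a repressor of E-cadherin, by 0.92, and the receptor kinase gene Axl was lower (−0.83). Vim (vimentin) was high in all libraries, with 73845, 99457 and 75247 reads against 108625, 109315 and 96950 (0.32), and lost its call without replicate 1 (0.27) or 3 (0.31) of E0771. Epithelial keratin and junction genes numbered 4 higher and 5 lower of 16 tested, a split that turned to 5 and 3 or 6 and 2 under other scalings. Their 9 calls fell to 4 without replicate 2 and to 5 without replicate 3 of E0771. Of 10 tested mammary stem and progenitor markers 4 were higher (40%) and 0 lower, among them Bmi1, a Polycomb protein (1.11), and Myc (0.54).

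Of 26 tested growth factor receptors and ligands, 15 were lower (57.7%, against 35.3% of all tested genes) and 6 higher (23.1%, against 19.2%), with a median of −0.51. After quantile normalization 10 were lower and 6 higher, with a median of −0.20. Btc (betacellulin), a ligand of EGFR, had 208, 355 and 240 reads in E0771 and 13, 22 and 15 in E0771-LG (limma adjusted p = 4.75e-06). Its receptor gene Egfr had 149, 258 and 175 against 589, 656 and 818 (1.81, SE 0.18), so ligand and receptor differed in opposite directions. Met, the receptor of hepatocyte growth factor, had 2319, 2536 and 1913 reads against 6861, 6479 and 7836 (1.62, SE 0.11). Igfbp4, a secreted binder of insulin-like growth factors, had 4178, 5775 and 4544 against 19550, 20332 and 18109 (1.98, SE 0.10). Both were higher in every E0771-LG library.

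Of 14 angiogenic and endothelial-acting factors tested, 4 were higher (28.6%, against 19.2% of all tested genes), 7 lower (50%, against 35.3%) and 3 not passed. The median was −0.67, but −0.21 after quantile normalization, and 11 calls became 7 without replicate 3 of E0771. Vegfc, a lymphatic growth factor, was higher by 2.31 and Adm (adrenomedullin) by 1.74, while Angpt1, a ligand of TEK, was lower (−1.43). Of 33 tested TGF-beta and BMP genes 7 were higher (21.2%) and 14 lower (42.4%), although the median was 0.01, and after quantile normalization 11 went each way. Bmp7 had 99, 159 and 111 reads against 17, 19 and 25 (−2.59), and Fstl1, a secreted follistatin-like protein, was lower (−2.18). Wnt and Notch genes were higher in 10 (31.2%) and lower in 7 (21.9%) of 32 tested, with a median of −0.07 that turned to 0.08 and 0.27 under the other scalings. Wnt7b had 13, 52 and 32 reads against 215, 384 and 280 (3.29) and Wnt10b 52, 47 and 60 against 331, 306 and 294 (2.51), and both encode secreted Wnt ligands.

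Axon guidance and neurite genes, a list chosen because PTN acts on neurons, had 14 higher (41.2%, against 19.2% of all tested genes), 9 lower (26.5%, against 35.3%) and 11 not passed of 34 tested. L1cam, an adhesion molecule of growing axons, had 5665, 8186 and 6257 reads in E0771 and 790, 1598 and 1306 in E0771-LG (−2.52, SE 0.20). Plxna3, a semaphorin coreceptor, was lower (−2.39). The semaphorin genes Sema3a and Sema4d were higher (1.70 and 2.02) and Sema3b was lower (−1.79). The list therefore moved in both directions, with a median of −0.20.

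Detoxification genes moved in both directions. Of 36 tested glutathione, NRF2 and drug efflux genes, 9 were higher (25%, against 19.2% of all tested genes) and 18 lower (50%, against 35.3%), with a median of −0.35. Gstm1, a glutathione transferase, had 920, 1108 and 931 reads in E0771 and 99, 105 and 84 in E0771-LG (−3.39, SE 0.14, limma adjusted p = 3.17e-07). The glutathione transferase genes Gsta4 (−2.70), Gstt1 (−2.40) and Gstm2 (−2.20) were lower too, with no overlap between the lines. Gsto1, of the omega class, was higher, with 4760, 4875 and 4463 reads against 9253, 7967 and 8583 (0.83, SE 0.12). Abcb1b, a drug efflux pump, was higher, with 367, 425 and 331 reads against 2450, 2505 and 2756 (2.75, SE 0.10). Close relatives in the Gstm and Abcb1 families may share reads.

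Among genes of energy and lipid metabolism, 50% of glycolysis and hypoxia genes, 39.7% of oxidative phosphorylation subunits and 62.2% of cholesterol and fatty acid genes were called, against 54.5% of all tested genes. Of 40 tested glycolysis and hypoxia genes 9 were higher and 11 lower. Eno2, a neuronal enolase, was lower (−3.18), and Slc2a3, a glucose transporter, and Adm were higher (1.37 and 1.74). The median was −0.02, and 0.13 with median-of-ratios scaling, and after quantile normalization 8 were higher and 14 lower. Of 73 oxidative phosphorylation subunits 16 were higher, 13 lower and 44 not passed, the called members all by less than 1 on the log2 scale except Ndufv3 (−1.29), and 29 calls became 18 without replicate 3 of E0771. Their split was 26 higher and 6 lower with median-of-ratios scaling and 19 and 7 after quantile normalization. Of 37 genes of cholesterol and fatty acid synthesis 13 were higher and 10 lower, and 18 and 7 or 16 and 7 under those scalings. Fasn, the fatty acid synthase, had 9583, 8403 and 8099 reads in E0771 and 25237, 23481 and 29754 in E0771-LG (1.55, SE 0.14), and Scd2, a desaturase, was lower (−1.10).

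Proliferation and growth genes were divided as well. Of 62 tested mitosis and replication genes 21 were higher (33.9%, against 19.2% of all tested genes) and 15 lower (24.2%, against 35.3%), and 23 and 10 with median-of-ratios scaling. Among them was Rrm1, a subunit of ribonucleotide reductase, at 7250, 8571 and 6535 reads in E0771 and 19512, 16413 and 16345 in E0771-LG (1.19, SE 0.12). Gins2, a part of the replicative helicase, was lower (−1.11). Of 26 tested p53 targets 8 were higher (30.8%) and 1 lower (3.85%), including Ccng1 (1.07), and Trp53 itself was higher by 0.81. Of 75 cytosolic ribosomal protein genes 14 were higher (18.7%) and 3 lower (4%), with a median of 0.16. Their split was 34 and 2 with median-of-ratios scaling but 8 and 7 after quantile normalization, so no direction is given. The 17 calls became 11 without replicate 1 or 3 of E0771 or replicate 2 of E0771-LG. Few HOX and imprinted genes had enough reads. Of 6 tested HOX genes 3 were higher (50%, against 19.2% of all tested genes), led by Hoxd10 (1.17), and 2 lower (33.3%, against 35.3%). Of 6 tested imprinted genes 1 was higher (16.7%) and 2 lower (33.3%), close to the shares of all tested genes. Only 1 imprinted gene was called without replicate 3 of E0771-LG.

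**Figure D3:**
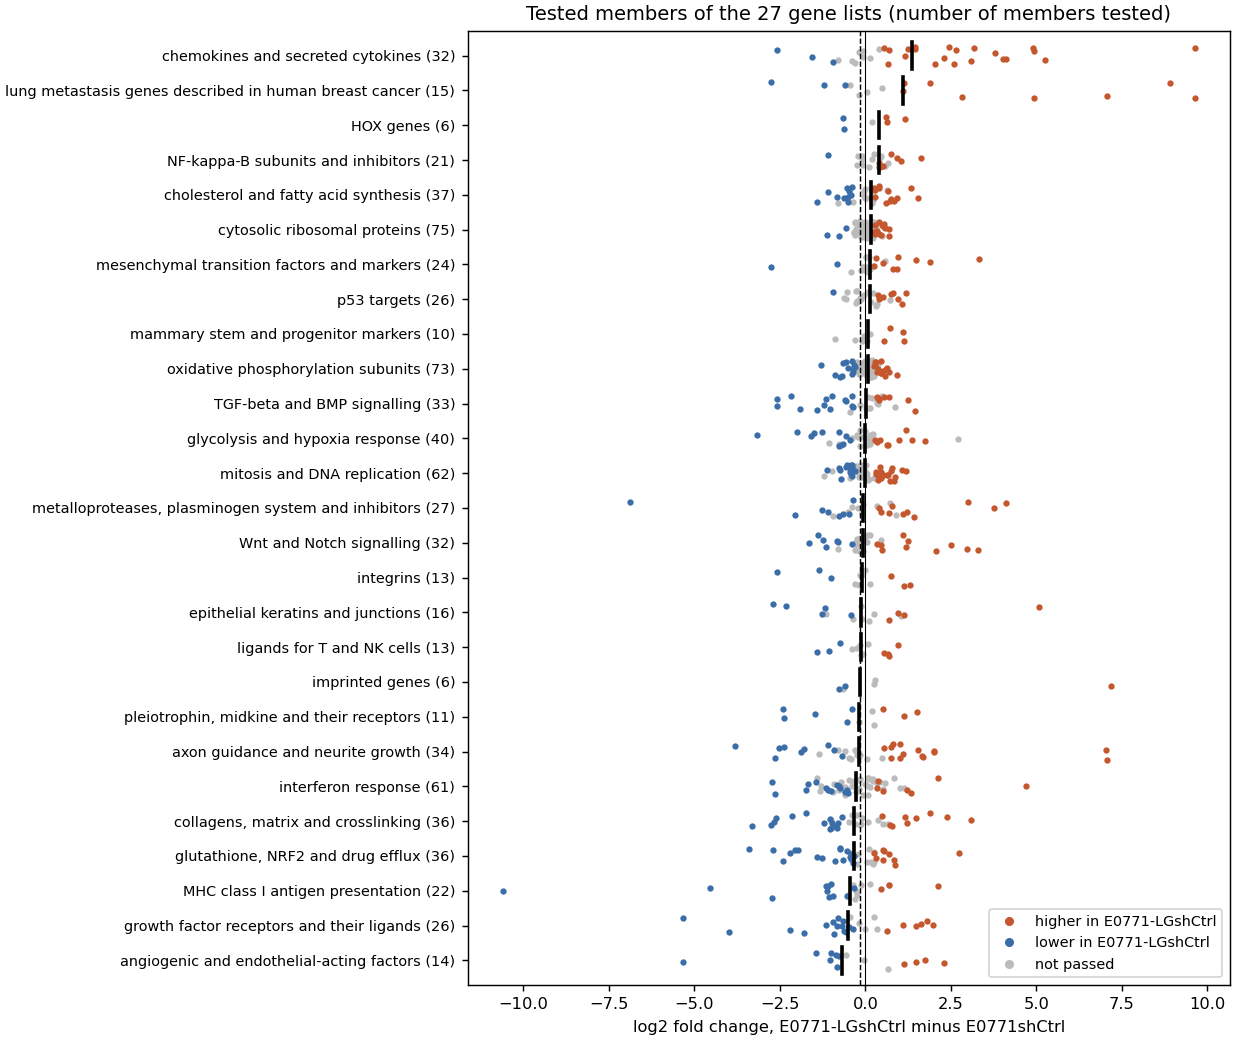
Log2 fold change (E0771-LGshCtrl minus E0771shCtrl) of each tested member of the 27 gene lists (points, colored by call) with the median of each list (black bar) and of all tested genes (dashed line at −0.15). Chemokines and secreted cytokines have the highest median (1.35) and angiogenic factors the lowest (−0.67, but −0.21 after quantile normalization, above 3 other lists), most other lists spread to both sides, and the outermost points rest on few reads in 1 line.

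The same contrast was made in the PTN knockdown cells, which share no library with the control cells. Of 10508 genes tested there, 2756 (26.2%) were higher and 3963 (37.7%) lower in E0771-LGshPTN than in E0771shPTN. Of 10364 genes tested in both contrasts, 3640 were called in the same direction, 1238 higher and 2402 lower, and 359 in opposite directions. Of the control-cell calls, 62.5% of 1980 higher genes and 65.6% of 3662 lower genes were called again, and these were 45.9% of 2696 higher and 61.2% of 3927 lower calls in the knockdown cells. Genes at least 2-fold apart recurred more, with 316 of 407 higher (77.6%) and 993 of 1309 lower (75.9%) called in the same direction and 21 and 18 in the opposite. Over the genes tested in both, which do not stand in for replicates, the log2 fold changes correlated with r = 0.73.

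The direction of genes read in 1 line only mostly recurred. Of the 13 genes read only in E0771-LG, 12 were called higher in the knockdown contrast, and all 6 read only in E0771 were called lower. The limits on reads themselves were met again by 3 of the 13 and 2 of the 6. The exception was Sema3c, with 0, 3 and 1 reads in E0771-LGshPTN and 4, 0 and 2 in E0771shPTN. Sox7 again had 0 reads in all 3 E0771-LG libraries and 229, 133 and 204 in E0771. Cxcl1 had 117, 58 and 110 reads in E0771shPTN and 7297, 11918 and 10031 in E0771-LGshPTN (6.62). Of the 32 chemokine and cytokine genes, 18 were higher and 8 lower in the knockdown contrast, where 26.2% and 37.7% of all tested genes were, with a median of 1.07. Of the 32, 19 were called in the same direction in both contrasts, against 3640 of the 10364 genes tested in both. Some other lists did not keep their split. Cholesterol and fatty acid genes had 13 higher and 10 lower in control cells, but 4 and 26 in knockdown cells. Mesenchymal genes had 9 higher and 2 lower in control cells, but 4 and 9 in knockdown cells. Oxidative phosphorylation subunits had 16 higher and 13 lower in control cells, but 48 and 1 in knockdown cells. Cytosolic ribosomal protein genes had 14 and 3, but 64 and 0. The control splits of both these lists depended on scaling, and other scalings were not applied to the knockdown counts of lists.

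The size of the line difference itself changed for many genes. In a fit over the 12 libraries with the difference between the contrasts as a term, 3602 of 10600 genes passed (34%; limma, adjusted p under 0.05), 1078 of them by at least 2-fold (10.2%). H2-K1 had 250, 291 and 254 reads in E0771-LGshPTN, where E0771-LGshCtrl had 3, 1 and 0, and the line difference was smaller by 7.52 on the log2 scale (limma adjusted p = 9.14e-05). The fibrillar collagen genes Col1a1 and Col3a1, named as fibroblast markers, differed more in the knockdown cells. Col1a1 had 379, 463 and 333 reads in E0771shCtrl and 188, 184 and 211 in E0771-LGshCtrl, but 745, 821 and 741 in E0771shPTN and 12, 3 and 10 in E0771-LGshPTN (difference between contrasts −5.70, limma adjusted p = 4.63e-06). The line difference of Serpinf1 had opposite signs, 3.76 in control and −1.33 in knockdown cells (difference −5.09, limma adjusted p = 2.26e-07). Each knockdown line is a population of its own, so the hairpin and differences between populations of a line cannot be told apart.

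**Figure D4:**
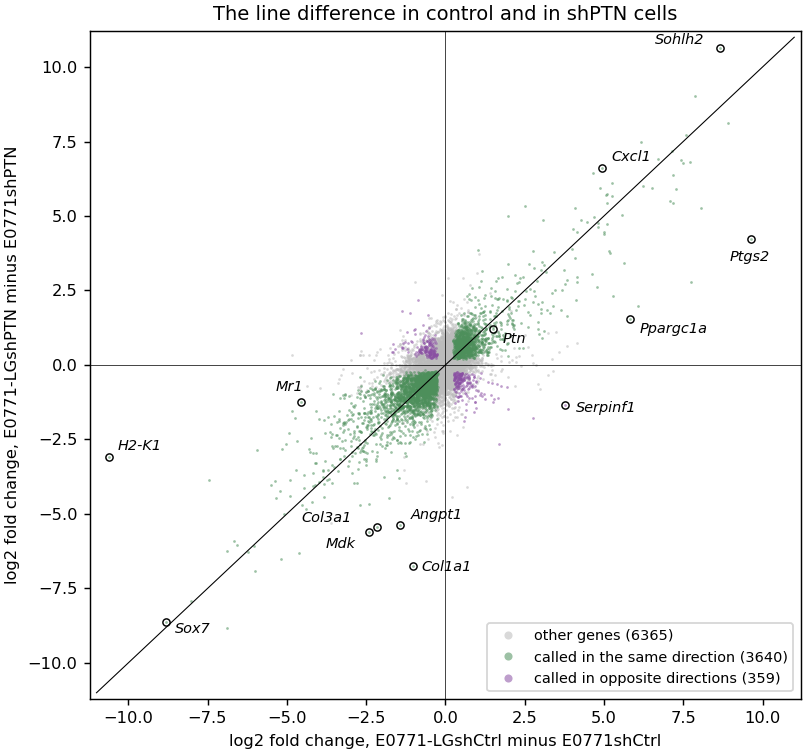
Log2 fold change between the lines in shPTN cells (E0771-LGshPTN minus E0771shPTN) against that in control cells (E0771-LGshCtrl minus E0771shCtrl), 1 point for each of 10364 genes tested in both and the line of equality. Genes called in the same direction number 3640, genes called in opposite directions (359) include 21 genes at least 2-fold higher and 18 at least 2-fold lower in control cells, Serpinf1 among the former, and H2-K1, Ptgs2 and Col1a1 lie far from the line.

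The difference between the lines was uneven along the genome. All 12091 genes of the table had a position (GRCm38), and the 20 chromosomes with at least 100 tested genes had medians from −0.47 to 0.24. Chromosome 11 had the highest, 0.24 over 888 tested genes, with 41.6% higher and 16.6% lower. It was 0.40 and 0.39 under the other scalings and 0.19 in the knockdown contrast. Chromosome 13 followed with 0.08 (0.26 in the knockdown contrast). Chromosome 17 had the lowest, −0.47 over 510 genes, with 4.51% higher and 56.3% lower, and it was −0.33 and −0.29 under the other scalings and −0.35 in the knockdown contrast. Chromosomes 16, X and 2 were also low, with −0.42, −0.38 and −0.37, and stayed below 0 under each scaling. Chromosome 18 was near the median of all genes in control cells (−0.08, and 0.07 under both other scalings) and low in knockdown cells (−0.44), a difference that was not tested.

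Runs of at least 5 consecutive tested genes that were all lower numbered 90, with 582 genes, and runs of higher genes numbered 14, with 82 genes. The imbalance depended on scaling, with 41 lower and 34 higher runs under median-of-ratios scaling and 37 and 38 after quantile normalization, and the number of runs that the shares of called genes alone would give was not tested. On the deposited scale the longest was a run of 15 lower genes over 5649 kilobases of the X chromosome, of which 14 were again lower in the knockdown contrast, and the next was a run of 14 on the same chromosome, 13 of them again lower. A run of 11 lower genes on the X chromosome ended with Plxna3. The longest higher runs had 8 genes. Of these, the run on chromosome 6 held Met (1.62) together with the caveolin genes Cav1 and Cav2, named after their values had been seen, and 6 of its 8 genes were again higher in the knockdown contrast. Met was not among the 6, as it did not pass there (0.22). DNA copy number was not measured, and its part in these runs was not tested.

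**Figure D5:**
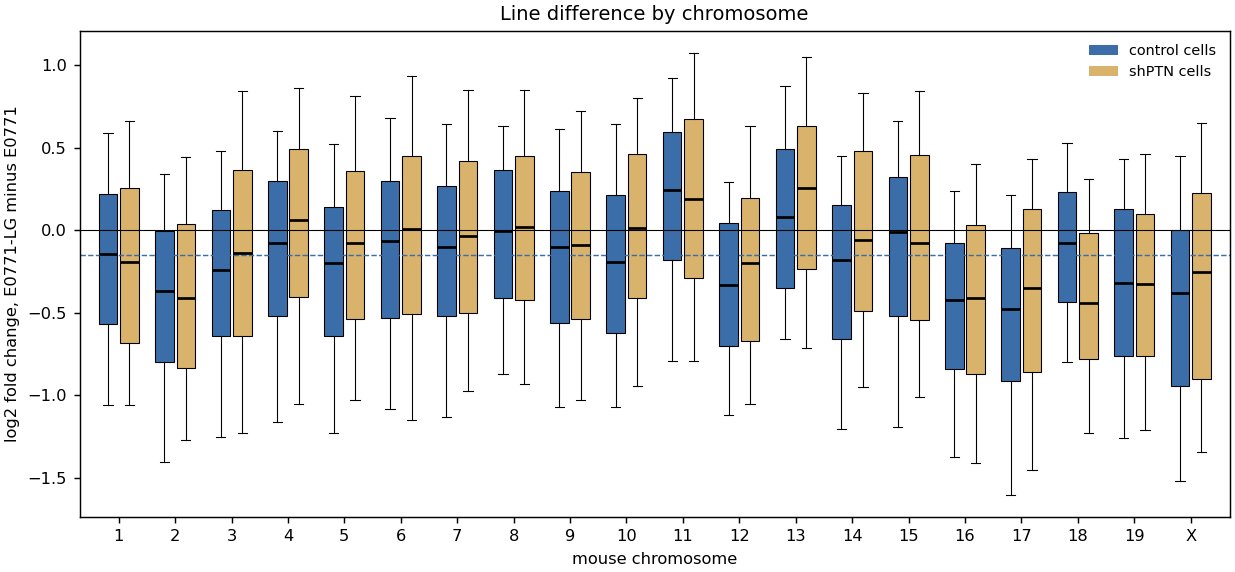
Log2 fold change between E0771-LG and E0771 by mouse chromosome in control cells (blue) and shPTN cells (yellow), with the median (bar), the quartiles (box) and the 10th and 90th percentiles (whiskers) of tested genes; the dashed line is the median of all tested genes in control cells (−0.15). Chromosome 11 lies highest and chromosome 17 lowest in control cells, and the medians of chromosome 18 are −0.08 and −0.44.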

How the data were processed

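RNA sequencing values of the 6 control and 6 shPTN libraries of E0771 and E0771-LG were used. According to the methods and the submitters' processing notes, the authors aligned reads to mm10 with HISAT2, counted them per gene with featureCounts and used limma and edgeR. The authors deposited log2 values, and the step that made them is not given in the sources used here. Off the log scale, 100% of values were whole reads plus an offset of 0.5 read (tolerance 0.01 read), which gave depth and reads per gene, so the unit is log2 CPM. A count test planned from the methods was replaced by limma 3.58.1 in R 4.3.3 (lmFit, eBayes with trend and robust), with Benjamini-Hochberg adjustment. This choice was made because the deposited values are log2. The recovered reads entered the voom and median-of-ratios alternatives, and no count test was run on them. The limma fit was tested on simulated reads in which few genes changed, with both directions drawn alike. That setting does not cover line differences as widespread as those seen here. Genes needed at least 1 CPM above the value of 0 reads in at least 3 of 6 libraries.

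Genes were named by a rule. It took the 12 largest changes in each direction among called genes whose groups did not overlap and whose mean log2 CPM reached 1. From each list it took up to 6 called members by change and the 2 with the highest mean, and the whole pleiotrophin list. It also took the 10 genes with most reads in each direction among those read in 1 line only, and markers over 100 reads in every library of a line. Genes outside it are marked in the text. The samples, the 27 gene lists and the 6 marker lists were chosen with earlier results of these data known. The other 12 columns of samples were not used. Alternatives were other filters, offsets and scalings, voom weights, other moderation, a fit over 12 libraries, a replicate block, a test against 2-fold and leaving out each library. The motif forms, the scalings by chromosome and for runs of genes, the division of MHC genes by chromosome and the fit of the difference between contrasts were added after seeing the data. Promoters were from RefSeq, GRCm38.p6, and plots were made with matplotlib 3.10.9 in Python 3.11.15.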

Additional observations from a re-analysis of the deposited data

Results flagged for a closer look

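The genes compared were Ptn and 24 genes with large changes in control cells. These 24 were the 12 largest changes in each direction among called genes whose groups did not overlap and whose mean log2 CPM reached 1. Genes read in 1 line only, other than H2-K1, fell below that mean and were left out. For 14 of the 25 genes, the line difference was not the same in shPTN and control cells by the test of the difference itself (limma, adjusted p from 2.4e-05 to 0.0435). Values are the line difference in shPTN cells minus that in control cells, on the log2 scale. Among genes higher in E0771-LG, the difference was smaller in shPTN cells for Ppargc1a (−4.26), Faim2 (−2.98), Lcp1 (−1.53) and Akr1c12 (−1.34) and larger for Cxcl1 (1.67). Among genes lower in E0771-LG, it was smaller in shPTN cells for H2-K1 (7.52), Mr1 (3.30), Serinc5 (2.38), Rfx2 (2.32), Fez1 (2.13), Mapre3 (1.48), Slc17a7 (1.47) and Hdac11 (1.37) and larger for Sardh (−1.72). Of all 10600 genes, 3602 passed the same test (34%). The compared genes were chosen by their control-cell values, which enter the same difference. Ptn itself did not pass (−0.30).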

How the results depend on the processing

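No named gene that was called changed sign under any alternative tried. Of 232 named genes with values, 182 had the same call in every alternative, and of 207 called in control cells 172 were called in all. The counts of genes higher and of genes lower in control cells moved by less than 1.5 times in each alternative but the test against a 2-fold difference, which called 180 and 400. Leaving out 1 library at a time gave between 1583 and 1966 higher and between 2886 and 3754 lower genes. Genes at least 2-fold higher numbered 431 on the deposited scale, 673 after quantile normalization and 180 when tested against a 2-fold difference (limma treat). Those at least 2-fold lower numbered 1319, 805 and 400. With limits of 10 and 50 reads, 31 genes were read only in E0771-LG and 18 only in E0771. Called list members went from 9 to 14 for NF-kappa-B genes after quantile normalization, from 5 to 8 for HOX genes without a filter, from 9 to 5 for epithelial genes with a filter on the mean, and from 17 to 36 with median-of-ratios scaling and to 11 with plain moderation for ribosomal proteins. The causes were not tested.

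The labels do not say whether the replicate numbers pair the samples, and the main fit did not pair them. Correlations of same-numbered libraries' deviations from the group means were 0.17, 0.24 and −0.02. E0771 replicates 1 and 2 correlated best with their own numbers, and E0771 replicate 3 did not. With a replicate block, 2118 genes were higher and 3875 lower in control cells, 2507 and 3671 in shPTN cells, and 35 interferon response genes were called in place of 21. A gene at 0 reads in 3 libraries may have up to 3 reads over the group by counting error alone.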
